A study of Homo sapiens with 6 samples.

Results

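The transcripts of 41 DNA repair genes were followed in 2 castration-resistant prostate cancer cell lines treated with inhibitors of HSP70, and most of them were lower than vehicle with each inhibitor in both lines. The genes were a named list, chosen with earlier results of these data known, so their shares beside those of all genes are descriptions. They were found by symbol among the 60658 gene identifiers of the expression tables, and all 41 matched a current symbol. The list held 16 genes of homologous recombination, 10 of the Fanconi anemia pathway, 6 of mismatch repair, 4 checkpoint kinases, 4 genes of base excision and single-strand break repair, and POLQ, the polymerase of theta-mediated end joining.

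Homologous recombination copies an intact sister chromatid to mend a double-strand break, so it works after DNA has been replicated. The Fanconi anemia proteins remove crosslinks that tie both strands together and stall the replication fork, and mismatch repair removes errors left behind the fork. Base excision repair replaces single damaged bases, theta-mediated end joining rejoins broken ends by short stretches of matching bases, and the checkpoint kinases hold the cell cycle while damage persists. Many genes of these pathways are transcribed most in cycling cells, and faults in homologous recombination or mismatch repair are known in a share of advanced prostate cancers.

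C4-2B MDVR is a derivative of the LNCaP line C4-2B that grows in the presence of the antiandrogen enzalutamide and was kept in 20 µM of it, whereas CWR22Rv1 was grown without the drug, so the line and the drug in its medium cannot be told apart. Each line gave 1 library of DMSO vehicle, 1 of 10 µM apoptozole (APO) and 1 of 10 µM VER155008 (VER), all collected after 48 h. APO and VER both bind the ATPase domain of the chaperone HSP70. The sample titles name C4-2B MDVR, while another label of the same samples says LNCaP-C4-2B and the cell type is given as parental for every sample; the titles were used here. With 1 library per condition, a difference within a line had no replicate check and is given with no p-value or SD; a test of what the lines shared, which 1 of the 41 genes passed, is given after the counts per line.

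Levels are FPKM, the fragments of a gene scaled by its transcript length in kilobases and by the number of fragments mapped in the library. A difference is the log2 of the ratio of 2 libraries after 0.1 FPKM was added to each, and a gene was called lower or higher when it passed 1.2-fold, the cutoff used by the study, with 2-fold as a stricter call. Levels are listed in the order DMSO, APO and VER, and differences in the order APO and VER, first for C4-2B MDVR and then for CWR22Rv1. A gene entered a line's comparisons when any of its libraries there exceeded 0.1 FPKM. This gave 20122 genes for C4-2B MDVR and 21608 for CWR22Rv1, and the median difference over all of them lay between -0.01 and 0 for either inhibitor against DMSO. Read totals of the single libraries are not given in the sources used here; the steps between the smallest FPKM values put the libraries' depths within 1.63-fold of each other, and no counting interval was made. Mitochondrial transcripts took 10.4% of the FPKM total in the APO library of CWR22Rv1 and 25.7% in the other libraries of that line, against 14.8% to 16.4% in C4-2B MDVR. All 8 luminal prostate markers were above 1 FPKM in every library, whereas the basal markers KRT5 and TP63 were listed at 0 throughout and KRT14 reached 0.101 FPKM at most. Of the fibroblast and leukocyte markers, COL1A1 was at 3.32 to 10.8 FPKM, DCN at up to 1.70 FPKM and CD68 at up to 3.68 FPKM, and COL1A2, PTPRC and CD3E were at 0.204 FPKM or less.

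All 41 repair genes were above 0.1 FPKM in all 6 libraries, so none was lost to the filter. Their summed level was 952 FPKM under DMSO, 564 under APO and 449 under VER in C4-2B MDVR. In CWR22Rv1 the sum was 1026 FPKM under DMSO, 656 under APO and 694 under VER. Both inhibitors thus left the summed level below vehicle in both lines, and the sum under VER was below that under APO in C4-2B MDVR and above it in CWR22Rv1. PARP1, which senses DNA breaks and attaches chains of ADP-ribose at them, was the most abundant of the 41 in every library, at 101 to 198 FPKM. The median over the 41 genes was 14.2 FPKM in the DMSO library of C4-2B MDVR and 14.8 FPKM in that of CWR22Rv1.

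**Figure D1:**
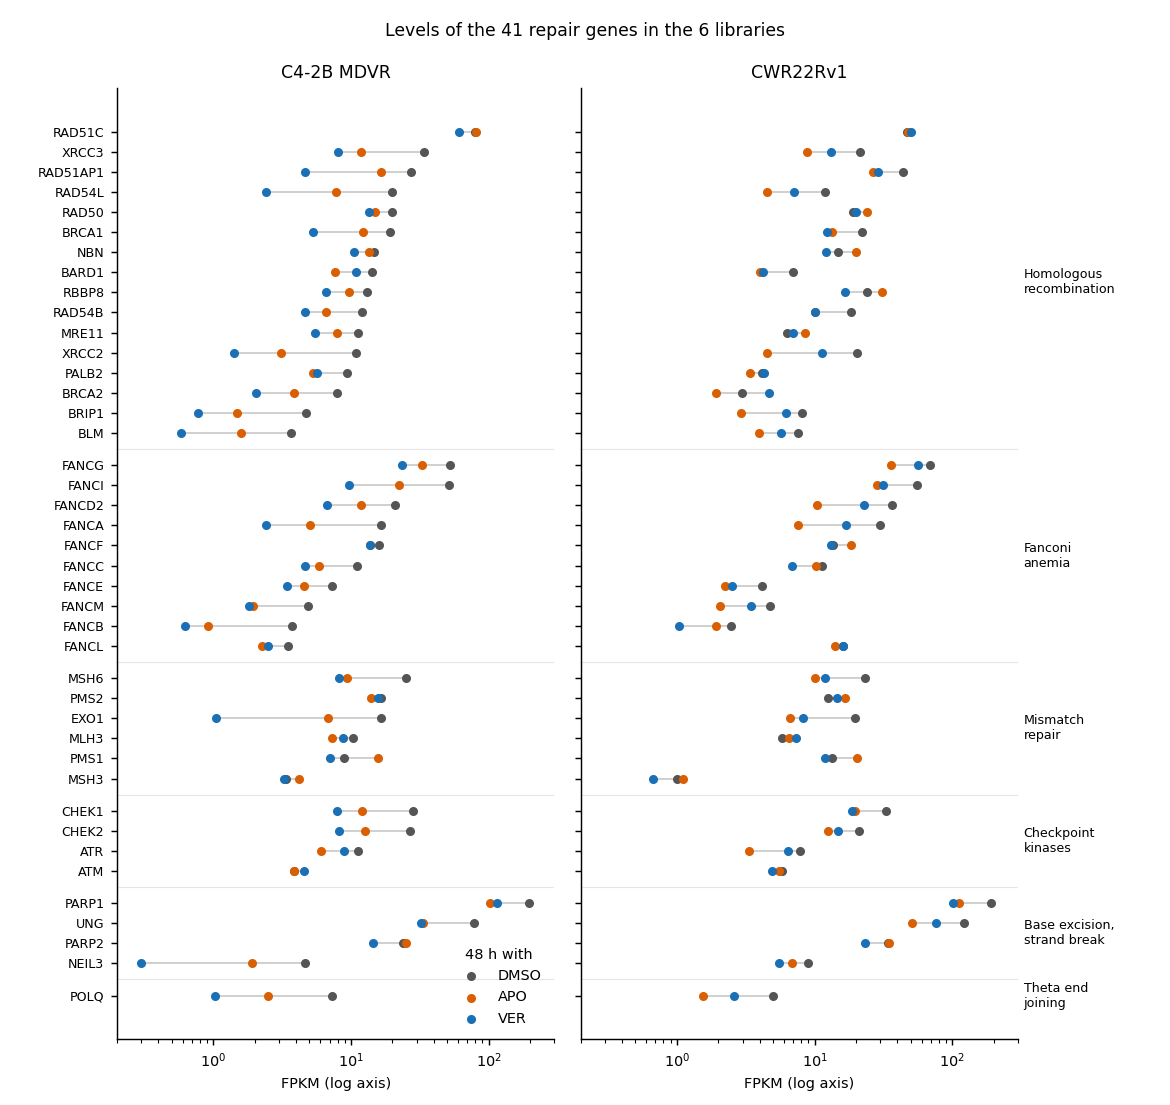
Level of each of the 41 repair genes in the 3 libraries of C4-2B MDVR (left) and CWR22Rv1 (right), as FPKM on a log axis; each point is 1 library, coloured by treatment, and the grey line spans the 3 values. PARP1 stands highest in all 6 libraries, the VER point lies furthest left for most genes in C4-2B MDVR, and the APO point does for XRCC2, FANCA and FANCD2 in CWR22Rv1.

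With APO in C4-2B MDVR, 33 of the 41 genes were lower than DMSO past 1.2-fold and 2 were higher, where 35.4% of all genes compared were lower and 37.7% higher. The median difference of the 41 was -0.87, and 17 were lower past 2-fold (all genes: 13.3%). With VER in the same line 36 were lower and 0 were higher (lower over all genes: 34.9%, higher: 35.6%), the median was -1.27, and 25 were lower past 2-fold (all genes: 13.3%). More of the list was thus lower past 2-fold under VER than under APO in this line, both read against 1 DMSO library.

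In CWR22Rv1, APO left 27 of the 41 genes lower and 7 higher (lower over all genes: 39.2%, higher: 35.6%), with a median of -0.74 and 12 lower past 2-fold (all genes: 16.8%). VER left 30 lower and 2 higher (lower over all genes: 32.3%, higher: 32.1%), with a median of -0.56, but the differences were smaller, and EXO1 and FANCB alone were lower past 2-fold (all genes: 8.92%). The genes that were higher in this line were RBBP8, NBN, MRE11, RAD50, FANCF, PMS1 and PMS2 (APO), and BRCA2 and MLH3 (VER). No gene of the list was higher past 2-fold against DMSO, where 15.4% and 14.4% of all genes were under APO and VER in C4-2B MDVR and 13.8% and 10.8% in CWR22Rv1. Every one of these comparisons shares the DMSO library of its line with the other inhibitor.

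The same inhibitor can be set against itself in the other line, since no library is shared. With APO, 27 of the 41 genes (65.9%) were lower past 1.2-fold in both lines, where 21.6% of the 18059 genes compared in both were. With VER it was 29 genes (70.7%), against 18.2% of all genes. Lower past 2-fold in both lines under APO were BRIP1, RAD54L, XRCC2, XRCC3, FANCA, FANCM, EXO1, MSH6, UNG and POLQ (24.4% of the list; 5.27% of all genes), and under VER FANCB and EXO1 (4.88%, all genes: 2.66%). PMS1 under APO was the one gene of the list that was higher in both lines (2.44%, all genes: 21.3%).

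Both lines were also put in 1 limma fit of log2(FPKM + 0.1) with the line and the treatment as terms, a test added after these values had been seen. It takes the 2 lines as the replicates of a treatment, so it tests what they share, with 2 residual degrees of freedom over 18059 genes. UNG, the uracil glycosylase, was lower with APO (-1.24 ± 0.21, SE, adjusted p = 0.0478 by limma, lower in 2 of 2 lines). It was the one gene of the 41 that passed an adjusted p of 0.05 under APO (2.44%), where 0.919% of all genes were lower and 1.40% higher, and it no longer passed with a pseudocount of 0.01 or 1 FPKM (adjusted p = 0.0655 and 0.052 by limma). MSH6 (-1.32 ± 0.24, adjusted p = 0.0517 by limma) and PARP1 (-0.85 ± 0.17, adjusted p = 0.0574) came next and did not pass.

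With VER 0 of the 41 genes passed the same limma test, as did few genes at all (lower: 0.0111%, higher: 0.0554%). MSH6 had the smallest adjusted p under VER (-1.28 ± 0.24, adjusted p = 0.131 by limma). At an unadjusted p of 0.05, 17 of the 41 were lower and 1 was higher with APO (all genes: 12.2% and 12.7%), and 25 were lower and 0 higher with VER (all genes: 8.65% and 8.44%). Between VER and APO 0 of the 41 passed (lower over all genes: 0.00554%, higher: 0.00%), and at an unadjusted p of 0.05 there were 3 lower and 1 higher (all genes: 6.68% and 5.95%). The counts past 1.2-fold in both lines are therefore descriptions of these libraries, and for most of the 41 genes the shared difference did not pass this test.

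**Figure D2:**
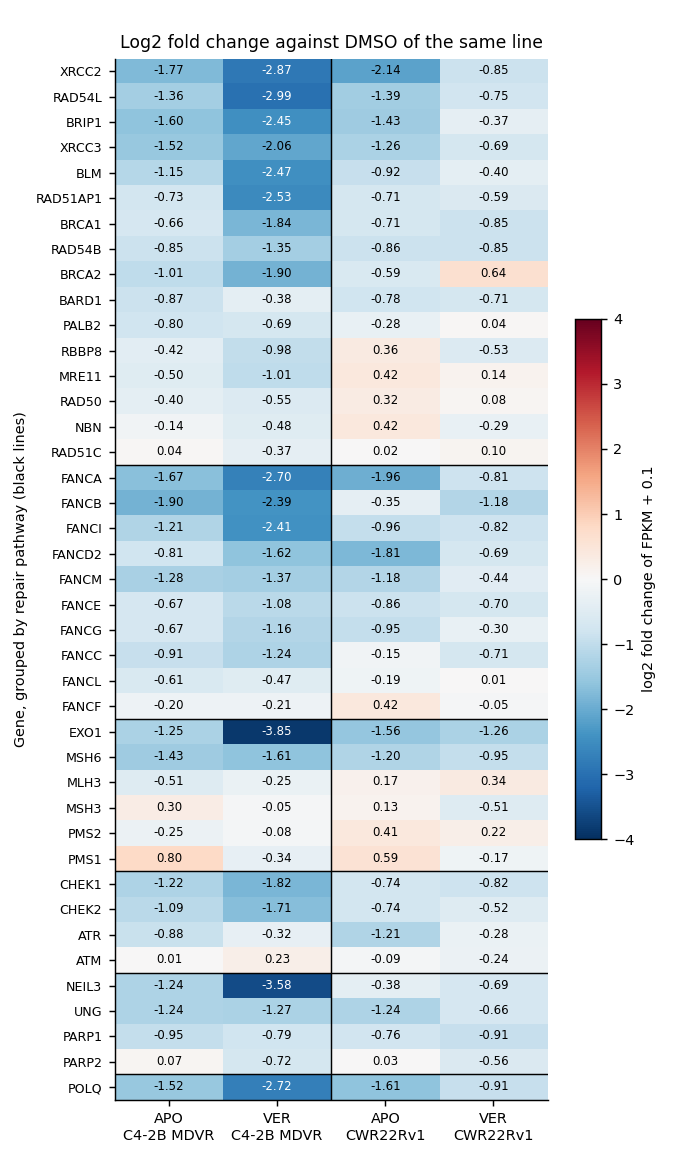
Log2 fold change of FPKM + 0.1 against the DMSO library of the same line for each of the 41 genes (rows, grouped by pathway between the black lines: homologous recombination, Fanconi anemia, mismatch repair, checkpoint kinases, base excision and single-strand break repair, and POLQ) and each inhibitor and line (columns). Blue is lower and red is higher than DMSO; the deepest values are EXO1 at -3.85 and NEIL3 at -3.58 under VER in C4-2B MDVR.

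The 12 proliferation markers of a separate list, among them MKI67, TOP2A, CDK1 and MCM2, moved the same way. Their summed level was 1084 FPKM under DMSO, 374 under APO and 143 under VER in C4-2B MDVR, and 838, 450 and 403 FPKM in CWR22Rv1. Of the 12, past 1.2-fold, 12 were lower under APO and 12 under VER in C4-2B MDVR, and 11 and 12 in CWR22Rv1, with medians of -1.65, -2.92, -1.01 and -1.27; no marker was at 0 in any library. Their part in the repair genes' result was not tested, and in bulk libraries fewer cycling cells and less RNA in each cycling cell cannot be told apart.

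The pathways differed in how far their members lay from DMSO. Homologous recombination had medians of -0.83 under APO and -1.60 under VER in C4-2B MDVR, and of -0.71 and -0.47 in CWR22Rv1. The Fanconi anemia genes had medians of -0.86, -1.31, -0.91 and -0.70 in the same order. Mismatch repair stayed nearest to DMSO, with medians of -0.38, -0.29, 0.15 and -0.34, although its members EXO1 and MSH6 were among the lowest genes of the whole list. The checkpoint kinases had medians of -0.98, -1.01, -0.74 and -0.40, and the base excision and strand break genes -1.09, -1.03, -0.57 and -0.67. With 4 to 16 genes in a pathway and 1 library per condition, the differences between these medians were not tested.

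**Figure D3:**
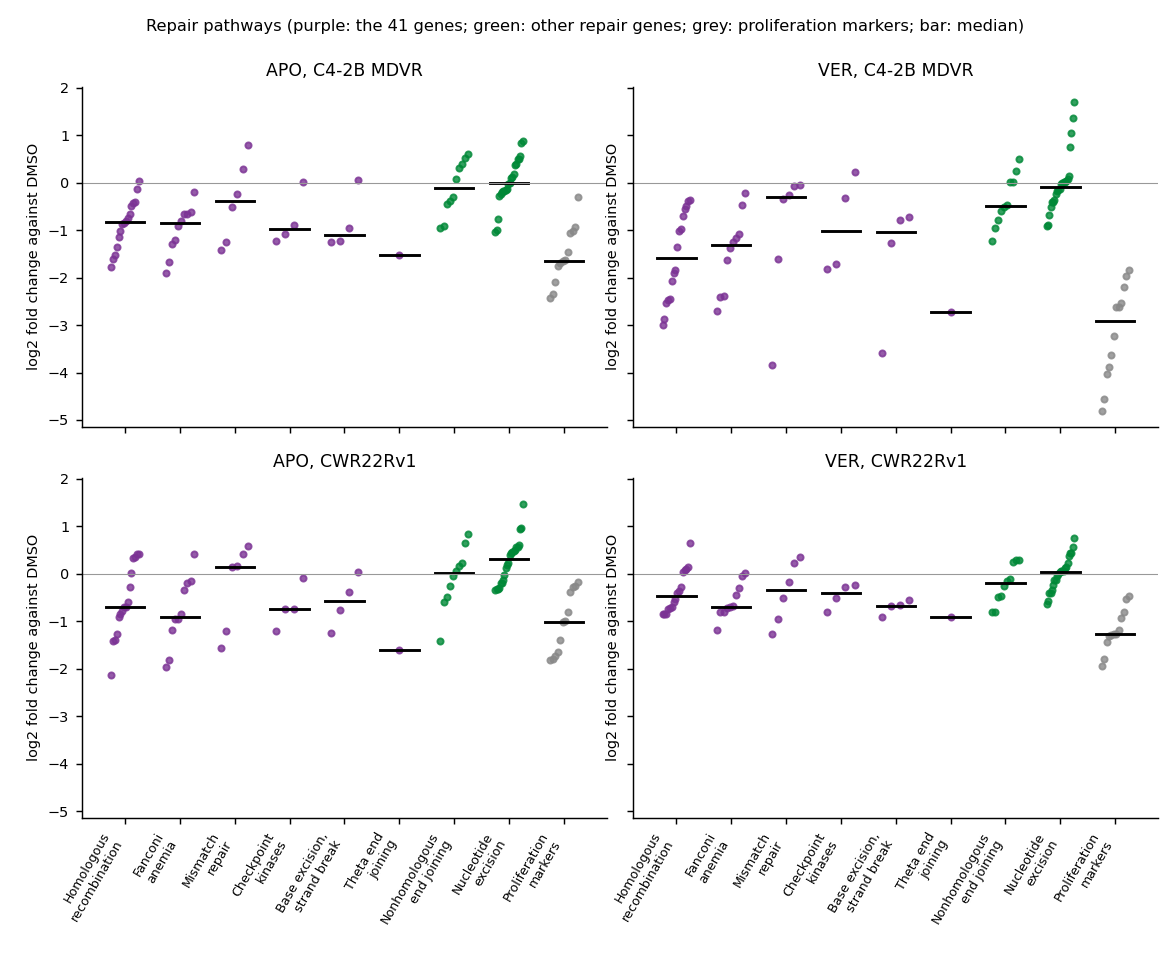
Log2 fold change against DMSO of each gene (points) and the median of each pathway (black bars) for both inhibitors in both lines. Purple points are the 41 repair genes, green points genes of nonhomologous end joining and nucleotide excision repair, and grey points proliferation markers; in all 4 panels the proliferation markers have a lower median than every pathway shown except POLQ in CWR22Rv1 under APO, and nucleotide excision repair has a median near or above 0.

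Among the 16 homologous recombination genes of the list, XRCC2 and RAD54L stood lowest on average over the 4 comparisons with DMSO. XRCC2, a paralog of the recombinase that helps to assemble its filament on DNA, was at 11.0 FPKM under DMSO, 3.13 under APO and 1.42 under VER in C4-2B MDVR. In CWR22Rv1 its levels were 20.4, 4.55 and 11.3 FPKM. The differences were -1.77 and -2.87 in the first line and -2.14 and -0.85 in the second, so VER gave the lower level of XRCC2 in C4-2B MDVR and APO in CWR22Rv1.

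RAD54L, a motor protein that drives strand invasion, was at 19.9 FPKM under DMSO, 7.73 under APO and 2.41 under VER in C4-2B MDVR. Its CWR22Rv1 levels were 11.99, 4.51 and 7.08 FPKM, with differences of -1.39 and -0.75. The differences in C4-2B MDVR were -1.36 under APO and -2.99 under VER, the second being the lowest value among the 16 homologous recombination genes of the list. RAD54B, its paralog, differed by -0.85 under APO and -1.35 under VER in C4-2B MDVR, and by -0.86 and -0.85 in CWR22Rv1. Exons of FSBP on the same strand cover 59.1% of the exonic bases of RAD54B, so fragments from that gene may be counted with it, and exons of LRRC41 on the other strand cover 25.1% of those of RAD54L.

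BRCA1 and BRCA2 act before and at the loading step: BRCA1 with its partner BARD1 promotes resection and recruits PALB2, and PALB2 brings in BRCA2, which places the recombinase on single-stranded DNA. BRCA1 was at 19.3, 12.2 and 5.30 FPKM under DMSO, APO and VER in C4-2B MDVR and at 22.1, 13.5 and 12.3 FPKM in CWR22Rv1, lower with both inhibitors in both lines. BRCA2 was at 7.86, 3.86 and 2.03 FPKM in C4-2B MDVR, but at 2.98, 1.94 and 4.71 FPKM in CWR22Rv1. There it was lower under APO by 0.59 on the log2 scale and higher under VER (0.64), and it was the one gene of the list that VER left lower in one line (-1.90) and higher in the other past 1.2-fold (2.44% of the list, all genes: 5.57%). PALB2 differed by -0.80 and -0.69 in C4-2B MDVR and by -0.28 and 0.04 in CWR22Rv1, and BARD1 by -0.87 and -0.38, and by -0.78 and -0.71.

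The ratio of BRCA1 to BARD1 levels in C4-2B MDVR was 1.36 under DMSO, 1.57 under APO and 0.490 under VER. In CWR22Rv1 the same ratio stayed between 2.91 and 3.37. The outermost annotated start of BRCA1 (ENSG00000012048, chr17:43044295-43170245 on the minus strand of GRCh38) lies 236 bp from NBR1, an autophagy receptor gene read from the other strand. A second annotated start site of BRCA1, at chr17:43125364, lies inside that span and further from NBR1. Which start site these libraries used was not tested, so the 2 genes need not share a promoter here. NBR1 was higher in all 4 treated libraries, by 0.84 under APO and 1.05 under VER in C4-2B MDVR and by 0.95 and 0.43 in CWR22Rv1, whereas the values of BRCA1 were -0.66, -1.84, -0.71 and -0.85.

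BRIP1, the helicase that binds BRCA1, was at 4.70, 1.48 and 0.781 FPKM in C4-2B MDVR and at 8.05, 2.93 and 6.20 FPKM in CWR22Rv1. BLM, the helicase that dissolves crossed-over intermediates, was at 3.66, 1.598 and 0.580 FPKM and at 7.56, 3.96 and 5.69 FPKM. Both were thus lowest under VER in the first line and lowest under APO in the second. RAD51AP1, an accessory factor that stabilises the joint molecule, differed by -0.73 and -2.53 in C4-2B MDVR but by -0.71 and -0.59 in CWR22Rv1.

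XRCC3 and RAD51C form a complex together, yet their transcripts parted. XRCC3 went from 33.8 FPKM under DMSO to 11.7 under APO and 8.005 under VER in C4-2B MDVR, and from 21.5 FPKM to 8.88 and 13.3 in CWR22Rv1. RAD51C was at 79.1, 81.4 and 61.3 FPKM, and at 47.0, 47.8 and 50.5 FPKM, and it passed 1.2-fold only under VER in C4-2B MDVR (-0.37). The ratio of XRCC3 to RAD51C was 0.427 under DMSO, 0.144 under APO and 0.131 under VER in C4-2B MDVR, and 0.457, 0.186 and 0.263 in CWR22Rv1. Exons of KLC1 on the opposite strand cover 76.7% of the exonic bases of XRCC3, and since the strand setting of the counting is not given in the sources used here, fragments of the 2 genes may not be fully separated.

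The genes that start the resection of a break were not lower under APO in CWR22Rv1. MRE11, the nuclease of the MRN complex, was at 11.2, 7.90 and 5.49 FPKM in C4-2B MDVR and at 6.36, 8.55 and 7.04 FPKM in CWR22Rv1. RAD50, which bridges the ends, differed by -0.40 and -0.55 in the first line and by 0.32 and 0.08 in the second. NBN, the third subunit, differed by -0.14 and -0.48, and by 0.42 and -0.29; RBBP8, the cofactor that switches the nuclease on, by -0.42 and -0.98, and by 0.36 and -0.53. With APO, RBBP8, MRE11 and RAD50 were therefore lower in C4-2B MDVR and higher in CWR22Rv1 past 1.2-fold, a pattern of 7.32% of the list and 5.09% of all genes. When the FPKM were rescaled to equal sums without mitochondrial genes, RBBP8 and RAD50 no longer passed in CWR22Rv1 (0.21 and 0.17).

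In the Fanconi anemia pathway FANCA, FANCB, FANCC, FANCE, FANCF, FANCG, FANCL and FANCM belong to the core complex that attaches ubiquitin to FANCD2 and FANCI. FANCA (ENSG00000187741, chr16:89737549-89816657, minus strand) was at 16.4, 5.07 and 2.43 FPKM under DMSO, APO and VER in C4-2B MDVR and at 29.7, 7.54 and 16.9 FPKM in CWR22Rv1. Its differences of -1.67, -2.70, -1.96 and -0.81 were the lowest of the pathway for VER in the first line and for APO in the second. Exons of ZNF276 on the opposite strand cover 23.6% of its exonic bases.

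FANCB, a core subunit encoded on the X chromosome, was at 3.71, 0.9195 and 0.625 FPKM in C4-2B MDVR and at 2.47, 1.92 and 1.04 FPKM in CWR22Rv1. It was the one Fanconi gene of the list lower past 2-fold under VER in both lines (-2.39 and -1.18), while APO moved it by -1.90 in C4-2B MDVR and by -0.35 in CWR22Rv1. FANCM, the translocase that brings the complex to DNA, differed by -1.28 and -1.37, and by -1.18 and -0.44. Below these stood FANCG, at 52.4, 32.9 and 23.4 FPKM and at 69.5, 35.8 and 56.6 FPKM, the most abundant core transcript of the list in both DMSO libraries, and FANCE, which differed by -0.67, -1.08, -0.86 and -0.70.

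FANCD2 and FANCI are clamped on DNA as a pair once ubiquitin is attached. FANCD2 was at 20.9, 11.9 and 6.72 FPKM in C4-2B MDVR and at 36.8, 10.4 and 22.8 FPKM in CWR22Rv1. FANCI was at 51.9, 22.4 and 9.66 FPKM and at 55.8, 28.6 and 31.6 FPKM. The ratio of FANCD2 to FANCI therefore went from 0.403 under DMSO to 0.530 under APO and 0.696 under VER in C4-2B MDVR, and from 0.660 to 0.365 and 0.720 in CWR22Rv1; APO moved it in opposite directions in the 2 lines.

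FANCF, an adaptor of the core complex, was at 15.9, 13.8 and 13.7 FPKM and at 13.7, 18.3 and 13.2 FPKM, and passed 1.2-fold only upward, under APO in CWR22Rv1 (0.42). Exons of GAS2 on the opposite strand cover 11.3% of its exonic bases. GAS2 was at 0.511, 0.285 and 0.235 FPKM in C4-2B MDVR and at 10.7, 24.3 and 16.7 FPKM in CWR22Rv1. The part of GAS2 fragments in the level of FANCF was not tested. FANCL, the ubiquitin ligase itself, differed by -0.61 and -0.47 in C4-2B MDVR and by -0.19 and 0.01 in CWR22Rv1. FANCC differed by -0.91, -1.24, -0.15 and -0.71, so in CWR22Rv1 it was lower under VER only.

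Of the mismatch repair genes, EXO1 and MSH6 were lower past 1.2-fold in all 4 comparisons with DMSO. MSH3 (VER in CWR22Rv1), MLH3 (APO in C4-2B MDVR) and PMS1 (VER in C4-2B MDVR) were lower in 1 each, and PMS2 in none. MSH3, MLH3 and PMS2 were higher in 1 comparison each and PMS1 in 2. EXO1 (ENSG00000174371, chr1:241847967-241895148, plus strand), the nuclease that removes the stretch holding the error, was at 16.4 FPKM under DMSO, 6.84 under APO and 1.05 under VER in C4-2B MDVR. In CWR22Rv1 it was at 19.8, 6.67 and 8.20 FPKM. Its differences of -1.25, -3.85, -1.56 and -1.26 were all past 2-fold, and the value for VER in C4-2B MDVR was the lowest of the 41 genes in any comparison with DMSO. EXO1 also extends resection at double-strand breaks, and its ratio to MRE11 went from 1.47 to 0.866 under APO and 0.191 under VER in C4-2B MDVR, and from 3.11 to 0.781 and 1.17 in CWR22Rv1.

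MSH6 and MSH3 compete for the same partner to recognise small and larger mismatches respectively. MSH6 was at 25.2, 9.32 and 8.21 FPKM in C4-2B MDVR and at 23.3, 10.1 and 11.99 FPKM in CWR22Rv1, lower by more than 2-fold under APO in both lines (-1.43 and -1.20). Exons of FBXO11 on the opposite strand cover 16.2% of its exonic bases. MSH3 was at 3.39, 4.19 and 3.28 FPKM and at 0.999, 1.10 and 0.669 FPKM, the least abundant of the 41 genes in all 3 CWR22Rv1 libraries. The ratio of MSH6 to MSH3 was 7.45 under DMSO, 2.23 under APO and 2.51 under VER in C4-2B MDVR, and 23.4, 9.13 and 17.9 in CWR22Rv1, so it was below that of DMSO in all 4 treated libraries.

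The differences of MSH3 were 0.30, -0.05, 0.13 and -0.51, so it was lower past 1.2-fold only under VER in CWR22Rv1. The value of 0.30 passed 1.2-fold as FPKM but was 0.15 after rescaling to TPM.

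PMS2, PMS1 and MLH3 are alternative partners in the MutL complexes that act after a mismatch has been recognised. PMS1 was at 8.96, 15.7 and 7.08 FPKM in C4-2B MDVR and at 13.4, 20.2 and 11.9 FPKM in CWR22Rv1. It was thus higher under APO in both lines (0.80 and 0.59), while its differences under VER were -0.34 and -0.17. PMS2 was at 16.5, 13.9 and 15.6 FPKM and at 12.5, 16.6 and 14.6 FPKM, and MLH3 at 10.4, 7.29 and 8.73 FPKM and at 5.79, 6.51 and 7.38 FPKM. PMS2 has 11 annotated copies, 6 of them above 1 FPKM in at least 1 library and together at 25.6 to 45.5 FPKM, so its own level is uncertain.

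**Figure D4:**
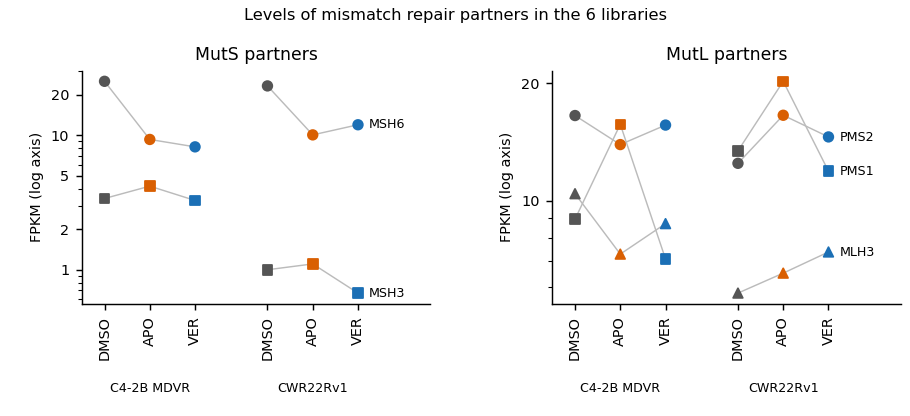
FPKM on log axes in the 6 libraries of MSH6 (circles) and MSH3 (squares), and of PMS2 (circles), PMS1 (squares) and MLH3 (triangles). MSH6 lies lower with either inhibitor in both lines, MSH3 keeps to 3.28 to 4.19 FPKM in C4-2B MDVR, and PMS1 is highest under APO in both lines.

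The checkpoint kinases fall into ATM and its target CHEK2, which answer double-strand breaks, and ATR and its target CHEK1, which answer stalled forks. CHEK1 was at 28.3, 12.1 and 7.94 FPKM in C4-2B MDVR and at 33.0, 19.7 and 18.7 FPKM in CWR22Rv1, and CHEK2 at 26.8, 12.6 and 8.13 FPKM and at 21.2, 12.6 and 14.7 FPKM. Both effector kinases were lower in all 4 treated libraries. ATM was within 1.2-fold of DMSO throughout, with differences of 0.01, 0.23, -0.09 and -0.24. ATR was lower under APO (-0.88 and -1.21) by more than under VER (-0.32 and -0.28), and its level under VER was above that under APO in both lines.

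Of the genes of base excision and single-strand break repair, UNG, which cuts uracil out of DNA, was at 78.4, 33.2 and 32.5 FPKM in C4-2B MDVR and at 121, 51.1 and 76.8 FPKM in CWR22Rv1. NEIL3, a glycosylase that also opens crosslinks, was at 4.66, 1.91 and 0.297 FPKM and at 8.93, 6.83 and 5.51 FPKM. Its difference of -3.58 under VER in C4-2B MDVR rests on the lowest level of any of the 41 genes in any library.

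PARP1, the target of the PARP inhibitors used in prostate cancer, was at 198, 103 and 114 FPKM in C4-2B MDVR and at 190, 112 and 101 FPKM in CWR22Rv1. PARP2, its lesser relative, was at 24.0, 25.1 and 14.6 FPKM and at 34.2, 34.9 and 23.1 FPKM. PARP1 was therefore lower with both inhibitors (-0.95, -0.79, -0.76 and -0.91), and PARP2 under VER only (-0.72 and -0.56). The ratio of PARP1 to PARP2 went from 8.26 under DMSO to 4.09 under APO and 7.86 under VER in C4-2B MDVR, and from 5.55 to 3.22 and 4.37 in CWR22Rv1.

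POLQ, which takes over double-strand breaks when homologous recombination fails, was at 7.28, 2.48 and 1.02 FPKM in C4-2B MDVR and at 4.96, 1.55 and 2.58 FPKM in CWR22Rv1. Its differences were -1.52, -2.72, -1.61 and -0.91, and 14, 16, 11 and 11 of the 16 homologous recombination genes were lower in the same comparisons (all genes: 35.4%, 34.9%, 39.2% and 32.3%).

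The promoter windows of 38 of the 41 genes were searched for short words known from the promoters of cell cycle genes; the windows run from 250 bases before to 50 bases after each start site, in the RefSeq annotation of GRCh38.p14, and 52 windows were searched because some genes have several start sites. No window was matched for NBN, RAD54B and FANCI. An E2F word (TTTCCCGC, TTTCGCGC, TTTGCCGC or TTTGGCGC on either strand) was found for 9 of the 38 genes (23.7%), and for 3.99% of the 27305 genes with a window. The 27305 include genes without a level in these libraries. Of genes with a window that were also compared in a line, 791 of 12721 held an E2F word in C4-2B MDVR and 814 of 13346 in CWR22Rv1. The word CCAAT was found for 19 of the 38 (39.7% of all genes), and the CHR words TTTGAA or TTCGAA for 7 (18.4%, all genes: 19.5%). The stretches from 120 bases before to 30 bases after the start site are shown for 6 of the genes with an E2F word, because they include mismatch repair genes that were lower (EXO1, MSH6) and one that was not (PMS2), beside XRCC2, FANCD2 and UNG. The first listed start site was used, and for UNG the second, which holds the word. Each is written 5′ to 3′ on the strand of the gene, with E2F words in capitals; a word on the other strand appears as its reverse complement.
EXO1 (chr1:241848084-241848233, plus strand): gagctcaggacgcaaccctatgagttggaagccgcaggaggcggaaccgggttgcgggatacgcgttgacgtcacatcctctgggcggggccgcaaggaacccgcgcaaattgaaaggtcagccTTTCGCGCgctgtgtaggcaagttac
MSH6 (chr2:47783025-47783174, plus strand): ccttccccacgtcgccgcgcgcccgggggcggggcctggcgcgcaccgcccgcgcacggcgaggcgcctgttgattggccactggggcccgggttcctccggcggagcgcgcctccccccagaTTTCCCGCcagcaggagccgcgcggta
PMS2 (chr7:6009077-6009226, minus strand): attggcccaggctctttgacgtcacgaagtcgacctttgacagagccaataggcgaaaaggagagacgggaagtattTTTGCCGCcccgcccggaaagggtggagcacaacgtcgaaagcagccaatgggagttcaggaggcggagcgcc
XRCC2 (chr7:152676112-152676261, minus strand): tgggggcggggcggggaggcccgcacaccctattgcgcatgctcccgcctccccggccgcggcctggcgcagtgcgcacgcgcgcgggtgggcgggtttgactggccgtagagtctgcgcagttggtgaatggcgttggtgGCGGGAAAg
FANCD2 (chr3:10026317-10026466, plus strand): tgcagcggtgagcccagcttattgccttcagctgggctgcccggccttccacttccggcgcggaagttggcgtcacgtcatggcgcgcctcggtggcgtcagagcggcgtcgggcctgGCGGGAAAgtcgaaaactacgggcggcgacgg
UNG (chr12:109098052-109098201, plus strand): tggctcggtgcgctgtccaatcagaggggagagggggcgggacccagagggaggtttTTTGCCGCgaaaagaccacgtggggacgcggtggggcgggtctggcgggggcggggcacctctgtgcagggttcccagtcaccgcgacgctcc

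In EXO1 the word begins at base 5 of the transcript and in MSH6 at base 4, in FANCD2 it spans the start site, and in XRCC2 it begins at base 22. In PMS2 and UNG it lies upstream, beginning at -43 and -63, and FANCA and FANCC hold a word further upstream, at -172, with a second one at -46 in FANCC. MSH3 holds 2 overlapping words, beginning at -107 and -103. Among the 38 genes, those with an E2F word had median differences of -1.24, -1.61, -1.24 and -0.71 for APO and VER in C4-2B MDVR and in CWR22Rv1, and the 29 without one -0.80, -1.08, -0.71 and -0.44. Over all genes with a window and a level, the medians with the word were -0.08, -0.13, -0.05 and -0.09, and those without it 0.03, 0.00, 0.01 and -0.01. The word was thus present in genes that were lower, in MSH3, which was lower only under VER in CWR22Rv1, and in PMS2, which was lower in neither line, and a match names letters in a window, not a bound factor.

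VER and APO can be compared directly within each line, at the same dose and time and without the DMSO library. In C4-2B MDVR 28 of the 41 genes were lower under VER than under APO and 2 were higher (lower over all genes: 32.5%, higher: 28.5%), with a median of -0.50. In CWR22Rv1 10 were lower and 15 higher (lower over all genes: 34.5%, higher: 37.3%), with a median of 0.15. Past 2-fold, 11 were lower and 0 higher under VER in C4-2B MDVR (lower over all genes: 10.5%, higher: 8.68%), and 0 were lower and 5 higher in CWR22Rv1 (10.5% and 15.6%). The split in CWR22Rv1 depended on scaling, with 15 lower and 13 higher as TPM, and 8 lower and 19 higher at equal sums without mitochondrial genes. In C4-2B MDVR those scalings gave 23 lower and 7 higher, and 23 lower and 8 higher.

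In 11 genes (26.8% of the list, all genes: 8.83%) the order of the inhibitors was turned round, lower under VER than under APO in C4-2B MDVR and higher in CWR22Rv1. They were BRCA2, BRIP1, RAD54L, XRCC2, XRCC3 and BLM of homologous recombination, FANCA, FANCD2 and FANCG, EXO1, and POLQ. XRCC2 showed it with -1.09 and 1.29, FANCA with -1.03 and 1.15, and FANCD2 with -0.82 and 1.12. EXO1 had the widest spread (-2.60 and 0.29), but its value in CWR22Rv1 was 0.12 on the TPM scale. No gene of the list had the opposite order (0.00%, all genes: 5.70%). A further 9 genes, RBBP8, NBN, MRE11, FANCB, FANCC, MSH3, PMS1, PARP2 and NEIL3, were lower under VER than under APO in both lines (all genes: 15.1%), and ATR alone was higher in both (2.44%, all genes: 14.6%). On the TPM scale NBN, FANCC and MSH3 no longer passed 1.2-fold in C4-2B MDVR. The proliferation markers had median differences between VER and APO of -1.86 in C4-2B MDVR and 0.05 in CWR22Rv1, and their part in this order was not tested.

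**Figure D5:**
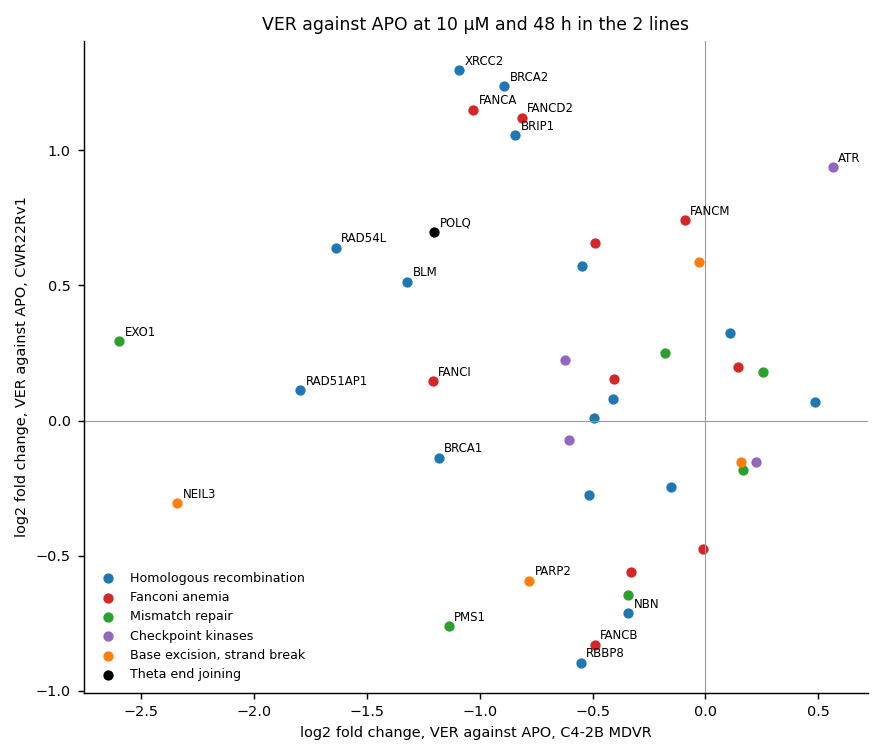
Log2 fold change of VER against APO in C4-2B MDVR (horizontal) and in CWR22Rv1 (vertical) for the 41 repair genes, coloured by pathway; genes beyond 0.7 on either axis are named. The upper left holds the genes that are lower under VER than under APO in C4-2B MDVR and higher in CWR22Rv1, such as XRCC2 at -1.09 and 1.29, and ATR lies furthest to the upper right, at 0.56 and 0.94.

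Under DMSO the lines differed in both directions. Of the 41 genes, 16 were lower and 15 higher in C4-2B MDVR than in CWR22Rv1 (lower over all genes: 43.2%, higher: 39.2%), and the median was -0.00. FANCL had the largest difference, at 3.52 FPKM in C4-2B MDVR and 16.04 FPKM in CWR22Rv1 (-2.16), and MSH3 the largest the other way, at 3.39 and 0.999 FPKM (1.67). BRCA2 (1.37), PALB2 (1.13) and BARD1 (1.01) were also higher past 2-fold in C4-2B MDVR, and BLM (-1.03) was lower, which made 2 genes lower and 4 higher (all genes: 27.2% and 19.4%). Exons of VRK2 on the opposite strand cover 18.7% of the exonic bases of FANCL.

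Other genes of homologous recombination, the Fanconi pathway, the checkpoint and base excision repair, on lists that hold none of the 41, had medians nearer to 0 than the members in every comparison with DMSO. No further genes of mismatch repair or theta-mediated end joining were listed. The members and lists were chosen with earlier results of these data known, so this contrast is a description, and its dependence on that choice was not tested. The counts of these other genes past 1.2-fold are in the order APO and VER in C4-2B MDVR and then in CWR22Rv1. Over all genes, 35.4%, 34.9%, 39.2% and 32.3% were lower and 37.7%, 35.6%, 35.6% and 32.1% higher in that order. Of 26 further homologous recombination genes, 17, 14, 15 and 16 were lower and 8, 6, 7 and 2 higher, with medians of -0.49, -0.33, -0.36 and -0.34. DNA2, a nuclease and helicase of long-range resection, was the lowest of them on average, with differences of -1.86, -3.73, -2.06 and -1.11, followed by EME1, a subunit of a junction-cutting nuclease, with -1.62, -3.01, -1.95 and -0.69. Of 12 further Fanconi genes 4, 6, 4 and 4 were lower and 3, 3, 4 and 2 higher, with medians of -0.03, -0.17, 0.02 and -0.10, and apart from VER in C4-2B MDVR the lower counts lay near the share of all genes. UBE2T, the ubiquitin-conjugating enzyme of the pathway, differed by -0.76, -1.67, -1.12 and -0.96, and FAAP24, the partner of FANCM, by -0.54, -1.13, -1.11 and -1.54. Among 13 checkpoint partners 8, 7, 8 and 7 were lower and 1, 1, 2 and 1 higher, with medians of -0.39, -0.75, -0.63 and -0.31, led by CLSPN, the adaptor that presents CHEK1 to ATR (-2.65, -4.64, -2.16 and -0.87), with TIMELESS, a fork protection factor, at -0.71, -1.30, -1.17 and -0.74. Among 18 further base excision genes 9, 8, 7 and 6 were lower and 3, 1, 6 and 3 higher, with medians of -0.23, -0.24, 0.02 and -0.03; APEX2 differed by -0.96, -0.88, -0.91 and -0.96, while MPG, the glycosylase for alkylated bases, was higher throughout (1.05, 0.83, 0.55 and 0.46).

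Nonhomologous end joining and nucleotide excision repair, which need no sister chromatid, had no member on the list. Of 10 genes of nonhomologous end joining 5, 6, 4 and 4 were lower (all genes: 35.4%, 34.9%, 39.2% and 32.3%). In the same order 4, 1, 2 and 2 were higher (all genes: 37.7%, 35.6%, 35.6% and 32.1%). Their medians were -0.11, -0.49, 0.01 and -0.20, and in CWR22Rv1 the lower counts lay near the share of all genes. PRKDC, the kinase that holds broken ends, was nevertheless lower throughout (-0.95, -0.95, -1.42 and -0.82), as was the end-binding subunit XRCC5 (-0.90, -1.24, -0.27 and -0.81). Of 22 genes of nucleotide excision repair 4, 7, 4 and 5 were lower and 7, 4, 11 and 5 higher, beside the same shares of all genes. Their medians were -0.01, -0.08, 0.31 and 0.04. XPC, which detects bulky lesions, was higher with both inhibitors in both lines (0.83, 1.36, 0.55 and 0.56), and its partner CETN2 differed by 0.88, 1.05, 0.23 and 0.44.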

How the data were processed

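RNA-seq of poly-adenylated RNA was measured in 6 libraries, 1 for each cell line and treatment. The authors deposited FPKM values for each gene and library, not read counts. The submitters' processing notes name HISAT, Cufflinks, Cuffnorm and GRCh38, and the study's methods also name TopHat and StringTie; the strand setting of the counting is not given in the sources used here, and the labels and the methods name different library kits. Each FPKM value was used as deposited. From it were computed log2 ratios with a pseudocount of 0.1 FPKM over genes that exceeded 0.1 FPKM in any library of the line, called past 1.2-fold or 2-fold. With 1 library per condition no test was run within a line; the treatment effect shared by the 2 lines was tested with limma 3.58.1 (moderated, with a trend on the mean level, Benjamini-Hochberg adjustment, line as a block). The line term takes up the difference in level between the lines, which differ in origin and in enzalutamide. The p-values therefore set a treatment difference against how far the 2 lines disagreed over DMSO, APO and VER together. Each gene had 1 such spread for every comparison, so disagreement between the lines on VER also entered the test of APO. For UNG the SE was 0.21 with APO and with VER alike. That spread was moderated over genes, with a median of 4.18 prior degrees of freedom. FPKM totals hold no read depth. Gene positions and overlaps were taken from GENCODE 29 and promoter sequences from RefSeq (GRCh38.p14). All 41 members are named; from each other list at most 2 genes are named, those with the largest mean difference among genes of one sign in all 4 comparisons with DMSO and a mean of at least 1 FPKM. The members and lists were chosen with earlier results of these data known. Alternatives were other pseudocounts (0.01 and 1), filters, scalings (TPM, median ratio, equal sums without mitochondrial genes), thresholds, and leaving out genes with copies. Python 3.11.15, pandas 2.3.3, numpy 2.4.6 and matplotlib 3.10.9 were used, and the steps were tested on simulated data.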

Additional observations from a re-analysis of the deposited data

Results flagged for a closer look

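The following differences had opposite directions in the 2 lines past 1.2-fold; each line gave 1 library per condition, so none of them was tested. Values are the log2 difference in C4-2B MDVR minus that in CWR22Rv1. For APO against DMSO this value was -0.78 for RBBP8, -0.92 for MRE11 and -0.72 for RAD50 (7.32% of the list, all genes: 5.09%). At equal sums without mitochondrial genes, RBBP8 and RAD50 no longer passed 1.2-fold in CWR22Rv1. For VER against DMSO the value was -2.54 for BRCA2, whose level with VER was 2.03 FPKM in C4-2B MDVR and 4.71 FPKM in CWR22Rv1.

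For VER against APO the homologous recombination genes gave -2.13 for BRCA2, -1.9 for BRIP1, -2.28 for RAD54L, -2.39 for XRCC2, -1.12 for XRCC3 and -1.83 for BLM. The Fanconi genes gave -2.18 for FANCA, -1.94 for FANCD2 and -1.15 for FANCG. EXO1 gave -2.89 and POLQ -1.9. The APO library of CWR22Rv1, which enters every comparison of APO in that line, had 10.4% of its FPKM total in mitochondrial transcripts against 25.7% with DMSO and with VER; the part of this share in these differences was not tested.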

How the results depend on the processing

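The median of the 41 genes against DMSO kept its direction and its side of 1.2-fold under every scaling, pseudocount and filter tried, ranging from -1.03 to -0.80 and from -1.27 to -1.13 under APO and VER in C4-2B MDVR, and from -0.90 to -0.63 and from -0.63 to -0.51 in CWR22Rv1. The median of VER against APO in CWR22Rv1 lay between -0.03 and 0.23, so its sign depended on the scaling. Pseudocounts of 0.01, a filter of 1 FPKM, no filter, a median ratio of 1 and leaving out PMS2, CHEK2 and FANCD2 moved no pathway median past the threshold and no count by over 1.5 times. With a pseudocount of 1, 1 gene was higher with APO in C4-2B MDVR, and the mismatch repair median with VER in CWR22Rv1 was -0.21. As TPM, 1 gene was higher with APO in C4-2B MDVR, 7 were higher with VER than with APO there, and the mismatch repair median with APO in CWR22Rv1 was 0.26. At equal sums without mitochondrial genes, a setting chosen after seeing the data, the genes higher numbered 1 with APO in C4-2B MDVR, 4 with APO in CWR22Rv1 and 8 with VER against APO in C4-2B MDVR.

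Past 1.5-fold, 1 gene was higher with APO in C4-2B MDVR, 1 with APO in CWR22Rv1 and 1 with VER in CWR22Rv1; VER against APO gave 17 lower and 0 higher in C4-2B MDVR and 6 lower in CWR22Rv1. Past 2-fold, APO gave 17 lower and 0 higher in C4-2B MDVR and 12 lower and 0 higher in CWR22Rv1, and VER gave 2 lower and 0 higher in CWR22Rv1. Past 2-fold, VER against APO gave 11 lower and 0 higher in C4-2B MDVR and 0 lower and 5 higher in CWR22Rv1, and the DMSO libraries differed for 2 genes lower and 4 higher in C4-2B MDVR. These counts follow from the threshold itself. With the line as a block in a limma fit of both lines, added after seeing the data, APO gave 1 gene lower and 0 higher at an adjusted p of 0.05 where 27 and 1 were past 1.2-fold in both lines, VER gave 0 lower where 29 were, and VER against APO gave 0 lower and 0 higher where 9 and 1 were. The spread between cultures is unknown, so a difference near 1.2-fold cannot be told from variation between cultures, and the levels under 1 FPKM, those of NEIL3, BLM, FANCB and BRIP1 in C4-2B MDVR and of MSH3 in CWR22Rv1, lie nearest to the pseudocount.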
